A study of Gallus gallus with 6 samples.

Results

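A set of 36 genes of the primary cilium, its intraflagellar transport and the Hedgehog pathway that runs through it was followed in chicken (Gallus gallus) skeletal muscle cells kept as dividing myoblasts or as myotubes. They were picked by gene name from the 26591 gene entries measured, of which 11074 carried a symbol. The names sought were the numbered IFT and BBS proteins, the tectonics, some further short families and 21 names spelled out in full. Of those 21 names, 7 (FUZ, LZTFL1, RAB23, RPGRIP1L, TTBK2, WDR35 and WDR60) matched no entry and were not analysed here, and nor were IFT88 and BBS1. The family itself was selected on the myotube against myoblast values of these same libraries, so the values of the 36 genes in that contrast are a description and support nothing by themselves.

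RNA was sequenced from passage 1 primary cells of chicken embryo skeletal muscle, with 3 libraries of each state. The myoblasts were growing in RPMI-1640 with 15% fetal bovine serum. For the myotubes the same base medium was given with 2% horse serum to induce differentiation. Penicillin and streptomycin were at 2% throughout, and the state of the cells cannot be told apart from the kind and amount of serum. Total counts ran from 21893152 to 27546527 per library. Whether the replicates are separate cultures or animals is not in the labels, and a p-value therefore measures the spread between these libraries alone, which may be technical. The groups are named as labelled. Of 13 tested myogenic markers, a list that mixes progenitor factors such as PAX3 and MYF5 with genes of differentiated muscle, 8 were called lower in myotubes by edgeR's quasi-likelihood test and 0 higher (0 also at an unadjusted p under 0.05, with DESeq2 and with limma). That is 61.5% lower, beside 29.1% lower and 30.0% higher over all genes tested. Without myoblast replicate 3 the number called higher was 1, and the median log2 change of the list was -0.47 instead of -0.86. Among the genes of differentiated muscle DES, the muscle intermediate filament protein, fell by 2.47 ± 0.32 (SE) on the log2 scale (adjusted p = 0.000289), and MYOG, the factor of terminal differentiation, had a log2 change of -0.24 ± 0.24 (adjusted p = 0.408). All 13 were read in every library.

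The primary cilium is a single antenna of microtubules that grows from the mother centriole of a cell that is not dividing and is taken down before mitosis. Its parts travel on trains of intraflagellar transport proteins, carried outward by kinesin-2 with the IFT-B complex and back by dynein-2 with the IFT-A complex, while the BBSome moves membrane proteins and the transition zone at the base acts as a gate. Vertebrate Hedgehog signalling works through it: the receptor PTCH1 keeps SMO out of the cilium until a ligand binds, and SUFU and the GLI factors pass through the tip. Most of these roles are known from the mouse, human cells and the alga Chlamydomonas, and are given here as background.

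All 36 genes passed the filter on low counts and had reads in every library. With edgeR's quasi-likelihood test at an adjusted p under 0.05, 22 were called higher in myotubes, 1 was called lower and 13 got no call. Over all 15959 genes tested, 59.1% were called, 30.0% higher and 29.1% lower, against 61.1% higher and 2.78% lower among the cilium genes. Because the family was selected on this contrast, nothing is read from that gap. In log2 CPM (counts scaled to the library's total after TMM adjustment) the values of the 2 groups did not overlap for 27 of the 36 genes, or 75%, where 67.2% of all genes tested did not overlap. In FPKM the number apart was 26, the difference being BBS7. The median log2 change, myotube minus myoblast, was 0.50 over the cilium genes and 0.0003 over all genes tested. Of all calls 50.7% were higher in myotubes in the count test, 47.1% in limma fits of log2(FPKM + 1) and 39.2% in those of log2(TPM + 1), TPM being FPKM rescaled to the same sum in every library. Both limma fits differ from the count test in the test as well as in the scaling. The median of all genes was -0.04 on FPKM and -0.13 on TPM, and the cilium genes called were 20 higher and 2 lower on FPKM and 17 higher and 3 lower on TPM. On TPM the cilium genes had a median 0.45 above that of all genes, against 0.49 in the count test. In bulk samples such as these, fewer cells of a type and less RNA per cell cannot be told apart.

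The changes were mostly small. A change of at least 1.5-fold upward was found for 15 cilium genes (41.7%, against 23.4% of all genes tested), and one of at least 2-fold upward for 4 (11.1%, against 13.5%). Those 4 were BBS4, TCTN3, IFT81 and IFT122. Downward, PTCH1 alone passed either size. The interquartile range of the cilium genes lay between log2 changes of 0.10 and 0.86, and that of all genes tested between -0.48 and 0.54. As a share of the summed FPKM (a level scaled to gene length and to the library's total), the 36 genes took 0.0852%, 0.0866% and 0.0702% in the myoblast libraries, in the order of their replicate numbers as for all values by library here, against 0.0942%, 0.0962% and 0.0988% in the myotube libraries. Every myotube library was above every myoblast library, and myoblast replicate 3 was the lowest.

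**Figure D1:**
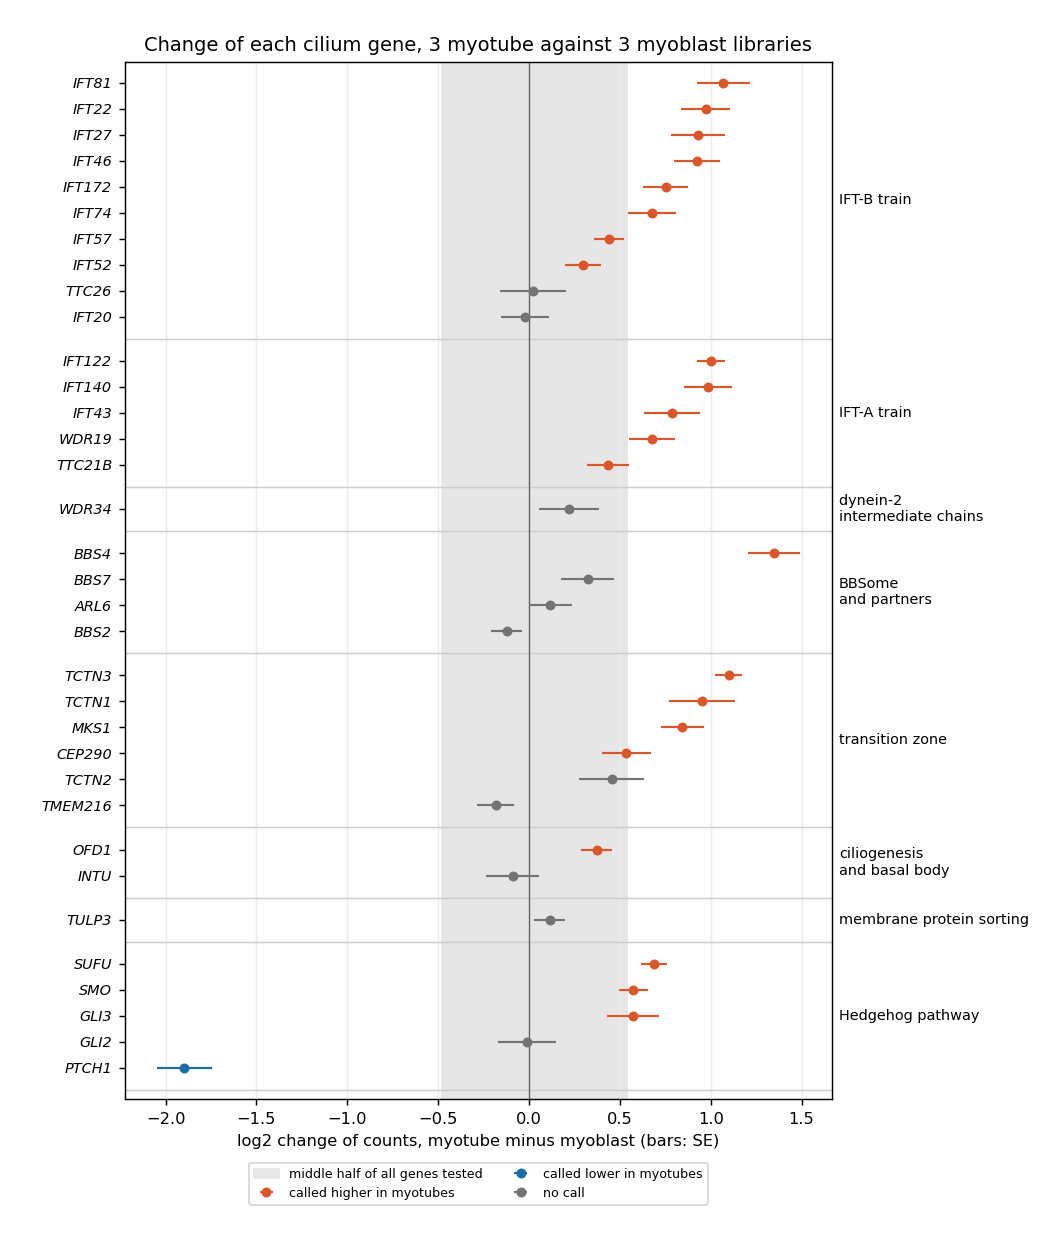
Log2 change of the count of 34 cilium genes, myotube minus myoblast (x axis), with its standard error as a bar, for 3 libraries against 3, ordered by role (y axis). The grey band is the interquartile range of all genes tested, from -0.48 to 0.54. Of the 34 genes drawn, 22 called higher (orange) lie at or to the right of 0.30, PTCH1 (blue) lies at -1.90, and 11 genes without a call (grey) lie between -0.18 and 0.45.

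The IFT-B train carries cargo outward along the axoneme. The name rule took 10 of its genes, and further subunits such as TRAF3IP1 are counted in a list described further on. Of these 10, 8 were called higher and 0 lower (0 also at an unadjusted p under 0.05, with DESeq2 and with limma). The median log2 change of the 10 was 0.71. IFT81, which with IFT74 binds the tubulin cargo, had 4.33, 5.16 and 3.33 FPKM in myoblasts and 7.82, 8.94 and 9.03 FPKM in myotubes. That is a mean of 4.27 ± 0.915 (SD, n = 3) against 8.60 ± 0.677 FPKM (SD, n = 3), with no overlap between the groups. Its log2 change of 1.07 ± 0.15 (SE), 2.10-fold, was the highest of the train. IFT74 itself had a smaller log2 change, 0.68 ± 0.13. IFT22, a small GTPase-like subunit, stood at 6.68, 8.07 and 5.81 FPKM in myoblasts and 13.6, 12.8 and 12.1 FPKM in myotubes. The least of its myotube values was above all its myoblast values, and its log2 change was 0.97 ± 0.14. IFT27, another small GTPase of the train and one needed for the BBSome to leave the cilium, was at 9.76, 10.4 and 7.25 FPKM in myoblasts and at 15.3, 17.1 and 17.7 FPKM in myotubes. Its groups were apart as well, with a log2 change of 0.93 ± 0.15.

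The other IFT-B genes of the family spread from there down to no difference. IFT46 and IFT172, both train subunits, had log2 changes of 0.92 ± 0.13 and 0.75 ± 0.12. IFT57 and IFT52, a peripheral and a core subunit, were called higher at 0.44 ± 0.08 and 0.30 ± 0.10. The call of IFT52 was lost without myoblast replicate 1, without myotube replicate 1 or without myotube replicate 3, and with limma on FPKM. TTC26, a subunit linked to the transport of some cargoes, had 5.74, 5.79 and 3.66 FPKM in myoblasts and 4.48, 5.0 and 5.29 FPKM in myotubes. Its myotube values fell inside the myoblast range, and its log2 change was 0.02 ± 0.18. IFT20, which also sits at the Golgi and sorts proteins bound for the cilium, had 97.6, 101 and 68.0 FPKM in myoblasts and 84.9, 84.9 and 81.3 FPKM in myotubes. Its myoblast values lay on both sides of the myotube ones, with a log2 change of -0.02 ± 0.13. On the FPKM scale IFT20 was the most abundant of the 36 genes in both states, with means of 88.7 ± 18.0 (SD, n = 3) and 83.7 ± 2.06 FPKM (SD, n = 3). Within IFT-B, mean levels spanned 20.8-fold in myoblasts and 17-fold in myotubes.

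The IFT-A train returns cargo to the base and also brings membrane receptors in. All 5 of its genes measured were called higher, with a median log2 change of 0.79. IFT122, a core subunit, was at 19.2, 21.2 and 17.8 FPKM in myoblasts and 35.8, 38.0 and 38.2 FPKM in myotubes. Those means, 19.4 ± 1.75 and 37.4 ± 1.31 FPKM (SD, n = 3 each), differed by far more than the spread within either group, and the log2 change was 1.00 ± 0.08. IFT140, also in the core, read 3.86, 4.15 and 2.95 FPKM in myoblasts and 6.23, 6.99 and 7.58 FPKM in myotubes, apart in every library, with a log2 change of 0.98 ± 0.13. Its entry overlaps TMEM204 on the opposite strand, which had 3759 counts against its own 3433 and a log2 change of 1.65. No source used here states whether strand was counted, so reads of the pair may have been mixed.

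IFT43, a peripheral IFT-A subunit, had 5.52, 5.76 and 4.40 FPKM in myoblasts and 8.71, 8.42 and 8.80 FPKM in myotubes, with no overlap and a log2 change of 0.79 ± 0.15. WDR19 of the core had a log2 change of 0.68 ± 0.13, but its 2155 counts lie across from RPL9, with 105166 counts and a log2 change of 0.74, and RFC1, with 9986 counts and one of -0.51. Its reads may have been mixed with theirs, and it is 1 of the 5 genes called here. TTC21B, the tetratricopeptide subunit of the outer part, had 4.49, 4.98 and 3.82 FPKM in myoblasts and 5.31, 5.68 and 6.24 FPKM in myotubes. The groups did not overlap, and its log2 change of 0.43 ± 0.12 was the smallest of IFT-A and lost its call in the limma fits. Per gene length, IFT122 was the highest of IFT-A and WDR19 the lowest in both states, 6.04-fold apart in myoblasts and 7.59-fold apart in myotubes.

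Most of the motor genes had no call. WDR34, an intermediate chain of the dynein-2 motor and a member of the family, had 6.61, 8.63 and 5.63 FPKM in myoblasts and 7.24, 8.74 and 7.29 FPKM in myotubes. The groups overlapped, and the log2 change was 0.22 ± 0.16 with no call. It lies across from SPTAN1, which had a log2 change of -1.375 and 70560 counts against its 1791. Reads of the pair may have been mixed. Among 11 further kinesin-2 and dynein-2 genes, 2 rose, 2 fell and 7 had no call, and their median log2 change was 0.06. That is 18.2% in each direction, against 30.0% higher and 29.1% lower over all genes tested. DYNC2LI1, the light intermediate chain found in dynein-2 alone, rose from 6.98, 6.76 and 5.40 FPKM to 13.3, 12.9 and 13.5 FPKM, a log2 change of 1.11 ± 0.12 (adjusted p = 0.000126). KIF3A, a motor subunit of kinesin-2, rose by 0.35 ± 0.08 on the log2 scale (adjusted p = 0.00396). Both genes that fell, DYNLL1 (log2 change -1.33 ± 0.17, adjusted p = 0.000285) and DYNLT3 (log2 change -0.33 ± 0.08, adjusted p = 0.0056), encode light chains that dynein-2 shares with cytoplasmic dynein. Other shared light chains are among the 7 genes without a call, so the counts and median are not of ciliary motors alone. The dynein-2 heavy chain gene DYNC2H1 was not analysed here.

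Of the 4 family genes for the BBSome and its partners, 1 was called higher, beside 30.0% of all genes tested. BBS2, BBS4 and BBS7 are subunits, while ARL6 is a partner. TTC8, a further subunit, is counted in the list of further IFT and BBS proteins described further on. TTC8 was called higher in edgeR, with a log2 change of 0.58 ± 0.16. MKKS, of the same list, had no call at 0.18 ± 0.08. BBS4, a subunit that joins the BBSome to centriolar satellites, lies on chromosome 10 from 1612983 to 1647497 in the coordinates of the files, for which no genome build is named. It was at 4.22, 4.56 and 3.27 FPKM in myoblasts and 9.13, 9.31 and 10.95 FPKM in myotubes. Every myotube library lay above every myoblast library, the means being 4.02 ± 0.667 and 9.80 ± 1.0 FPKM (SD, n = 3 each), and the log2 change of 1.35 ± 0.14, or 2.54-fold, was the highest of the 36 genes. BBS7, another subunit, was at 7.55, 9.12 and 5.87 FPKM in myoblasts and at 8.43, 9.12 and 9.46 FPKM in myotubes. These FPKM values overlapped, while in log2 CPM the groups did not. The log2 change was 0.32 ± 0.15, and a call appeared only without myoblast replicate 2, at 0.47, while without myoblast replicate 3 the value was 0.18. BBS2, also a subunit, read 12.7, 13.2 and 11.5 FPKM in myoblasts and 10.8, 10.95 and 11.3 FPKM in myotubes, a log2 change of -0.12 ± 0.08 with no call although the groups did not overlap. ARL6, the GTPase that recruits the BBSome to membranes, had 10.01, 11.7 and 10.6 FPKM in myoblasts and 10.2, 11.9 and 11.6 FPKM in myotubes. Those values overlapped, with a log2 change of 0.12 ± 0.12. In myoblasts BBS4 had the lowest mean FPKM of these 4 genes, 3.10-fold under BBS2, while in myotubes the lowest and highest were 1.25-fold apart. The deposited FPKM of BBS4 implied a shorter length than the listed one and that of BBS2 did not, so these folds depend on the length used.

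Of the 7 transition zone genes of the family, 4 were called higher and 0 lower (0 also at an unadjusted p under 0.05 and with DESeq2, 1 with limma on FPKM). Their median log2 change was 0.54. The 3 tectonics belong to the ring of gate proteins and came out at different sizes. TCTN3, on chromosome 6 from 35358068 to 35369992, had 21.1, 20.7 and 21.5 FPKM in myoblasts and 42.0, 43.2 and 45.1 FPKM in myotubes. Its myoblast libraries were nearly level, 21.1 ± 0.361 FPKM (SD, n = 3), the myotube libraries were all above them at 43.5 ± 1.57 FPKM (SD, n = 3), and the log2 change was 1.10 ± 0.07. TCTN1 was at 1.69, 1.71 and 1.34 FPKM in myoblasts and 2.59, 2.92 and 3.29 FPKM in myotubes, with a log2 change of 0.95 ± 0.18. That value rests on 57 to 111 counts per library, and HVCN1 across from it had 2319 counts in all against 490 and a log2 change of 1.10, so the reads of the pair may have been mixed. TCTN2 had a log2 change of 0.45 ± 0.18 and no call. Without myoblast replicate 3 that value was 0.26 and without myoblast replicate 2 it was 0.60, each with a call.

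MKS1, another protein of the gate, stood at 10.8, 11.9 and 8.60 FPKM in myoblasts and 17.4, 18.1 and 18.2 FPKM in myotubes, apart in every library, with a log2 change of 0.84 ± 0.12. CEP290, the large protein that ties the microtubules to the membrane, was at 3.58, 3.50 and 2.55 FPKM in myoblasts and 4.51, 4.05 and 4.81 FPKM in myotubes. These groups did not overlap either, with a log2 change of 0.54 ± 0.13. TMEM216, a membrane protein of the same gate, had a log2 change of -0.18 ± 0.10 with no call in the count test, and was called lower with limma on FPKM.

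The remaining cilium genes had small changes. OFD1, at the distal end of the centriole, was at 6.43, 6.60 and 6.74 FPKM in myoblasts and 8.05, 8.33 and 8.23 FPKM in myotubes, called higher at a log2 change of 0.37 ± 0.09. INTU, a planar polarity effector needed to start a cilium, had 4.05, 4.05 and 3.05 FPKM in myoblasts and 3.13, 3.25 and 3.68 FPKM in myotubes. The groups of INTU overlapped and those of OFD1 did not, and the log2 change of INTU was -0.09 ± 0.15. TULP3, an adaptor that brings receptors in with IFT-A, had 21.9, 21.8 and 19.7 FPKM in myoblasts and 20.5, 21.8 and 23.6 FPKM in myotubes, with a log2 change of 0.11 ± 0.09. TULP3 was not called, and its groups overlapped. Leaving the Hedgehog genes aside, 19 of 31 cilium genes were called higher and 0 lower in edgeR. At an unadjusted p under 0.05 and with DESeq2 the count of lower genes was also 0, while limma called 1 lower on FPKM and 2 on TPM.

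**Figure D2:**
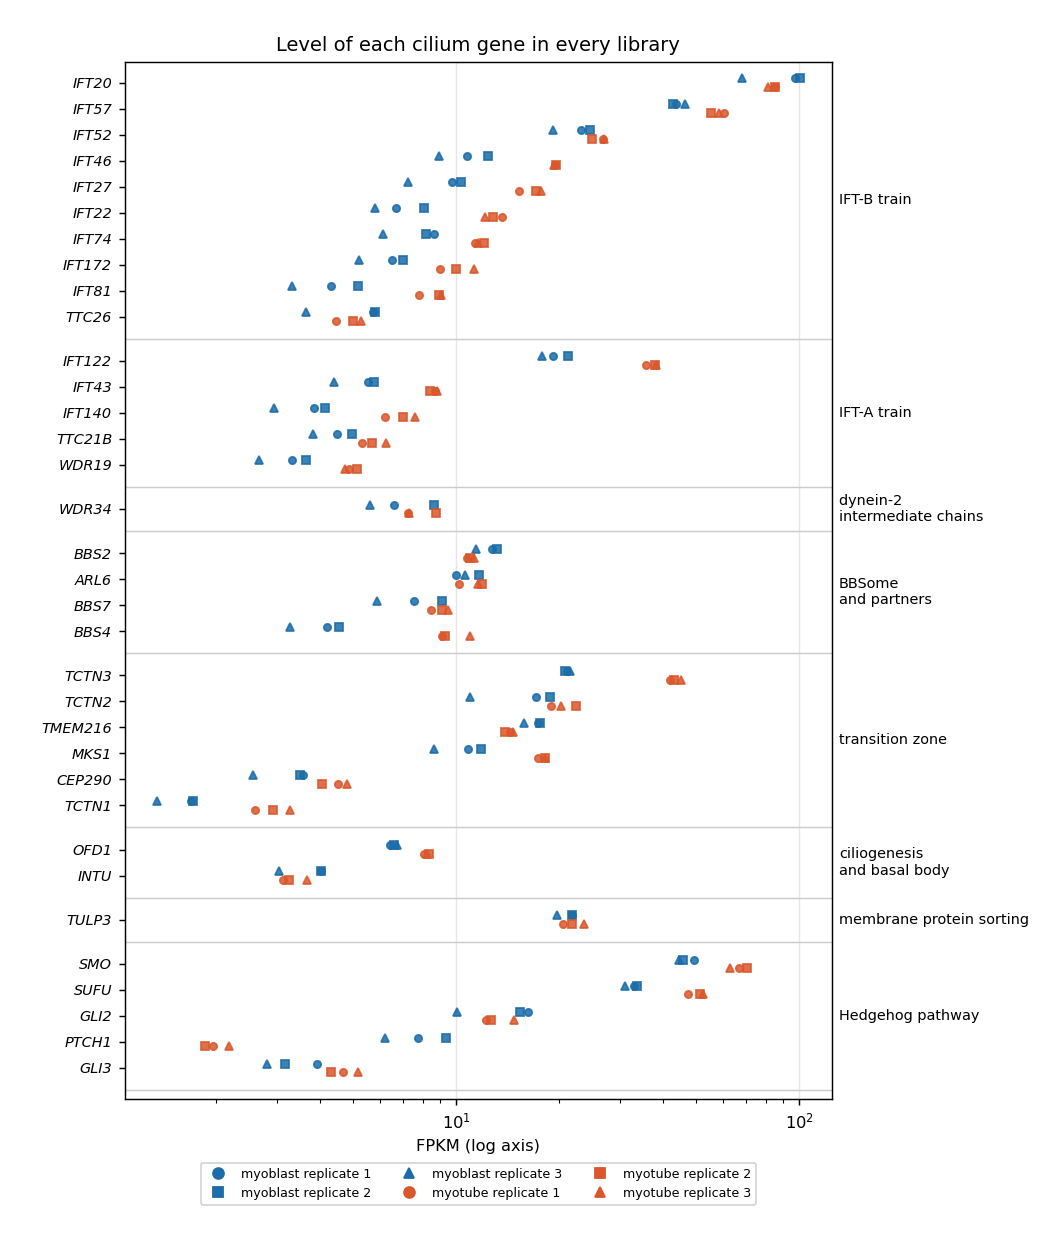
FPKM of 34 cilium genes (y axis, by role) in each of the 6 libraries on a log axis (x axis), myoblasts in blue and myotubes in orange, with the circle, square and triangle for replicates 1, 2 and 3. IFT20 is the highest at 68.0 to 101 FPKM, PTCH1 is the gene whose myotube points lie far to the left of its myoblast points, and the blue triangle of myoblast replicate 3 is the lowest myoblast point for 30 of the 34 genes drawn.

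The Hedgehog genes of the family did not move as 1 group. PTCH1, the receptor that holds the pathway off without ligand and is itself a known transcriptional target of it, had 7.72, 9.34 and 6.22 FPKM in myoblasts and 1.96, 1.85 and 2.18 FPKM in myotubes. All 3 myotube libraries were far below all 3 myoblast libraries, with means of 7.76 ± 1.56 against 2.00 ± 0.168 FPKM (SD, n = 3 each). Its log2 change of -1.90 ± 0.15, or 3.72-fold lower, made it the only one of the 36 called lower in edgeR. PTCH1 lies on chromosome Z from 41772281 to 41834833. SMO, the transducer that PTCH1 restrains, went the other way, from 49.3, 45.9 and 44.6 FPKM in myoblasts to 66.9, 70.3 and 62.7 FPKM in myotubes. Its groups were apart, and its log2 change was 0.57 ± 0.08. SUFU, which holds the GLI factors in check, had 33.0, 33.7 and 31.1 FPKM in myoblasts and 47.5, 51.3 and 52.5 FPKM in myotubes. Here too no libraries overlapped, with a log2 change of 0.69 ± 0.07.

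The GLI factors, which act on the target genes, differed from each other. GLI3, mainly a repressor when the pathway is off, was at 3.94, 3.17 and 2.80 FPKM in myoblasts and 4.67, 4.31 and 5.16 FPKM in myotubes, all of the latter higher, with a log2 change of 0.57 ± 0.14. GLI2, the main activator, was at 16.2, 15.3 and 10.04 FPKM in myoblasts and 12.2, 12.6 and 14.7 FPKM in myotubes. Its myotube values fell within the myoblast range, its log2 change was -0.01 ± 0.16, and without myoblast replicate 3 it was -0.19, with no call in either case. On the FPKM scale GLI2 stood above GLI3 in every library.

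**Figure D3:**
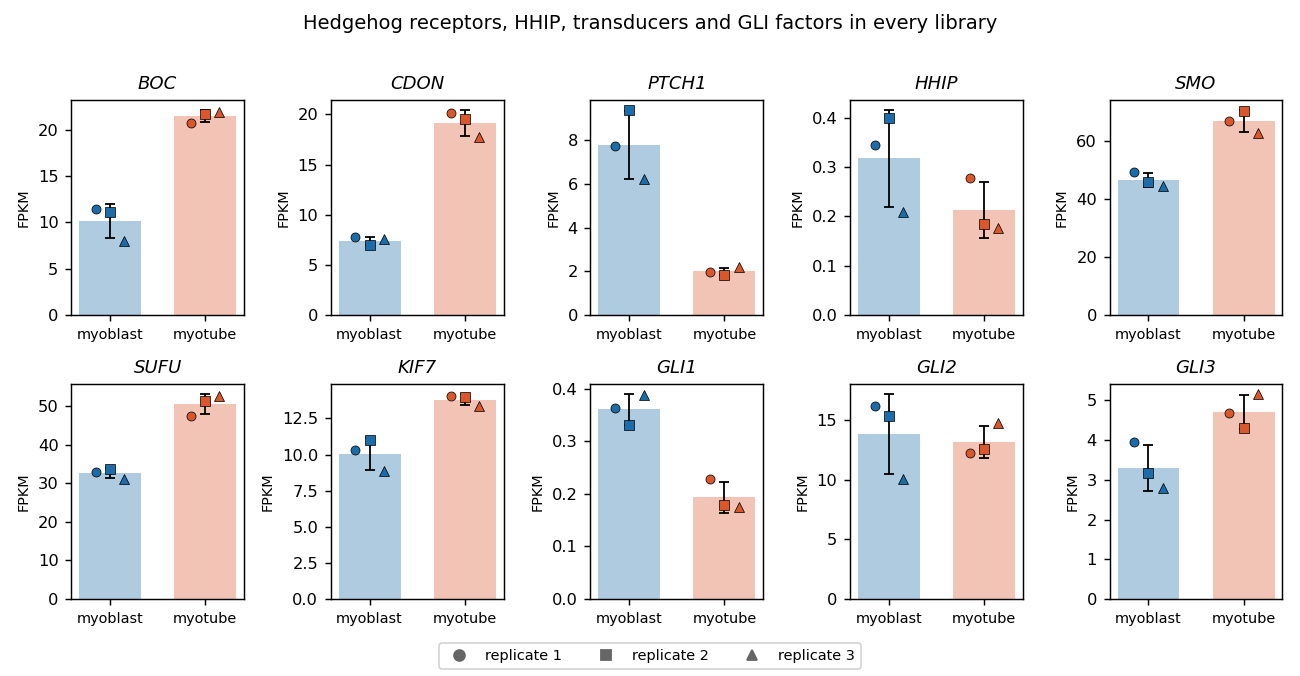
FPKM (y axis, one scale per panel) of PTCH1, SMO, SUFU, GLI2, GLI3 and 5 further Hedgehog genes in each library, with symbols for replicates 1 to 3, a bar for the mean of 3 and an error bar for the SD. PTCH1 goes from 7.76 to 2.00 FPKM, and SMO and SUFU are higher in all 3 myotube libraries.

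Further genes of the Hedgehog pathway, which the name rule did not take, had calls in both directions. Of 30 tested, 12 rose (40.0%), 6 fell (20.0%) and 12 had no call, beside 30.0% higher and 29.1% lower over all genes tested. Their median log2 change was 0.09. Without myotube replicate 3 the number that fell was 3. GLI1, the GLI factor that is induced by the pathway, was low throughout, with 0.363, 0.330 and 0.389 FPKM in myoblasts and 0.228, 0.178 and 0.175 FPKM in myotubes. It fell by 0.84 ± 0.25 on the log2 scale (adjusted p = 0.0204), on 30 to 42 counts per myoblast library and 15 to 21 per myotube library. That call was lost with DESeq2 and without myoblast replicate 1, myoblast replicate 3, myotube replicate 2 or myotube replicate 3, where the log2 change lay between -0.85 and -0.76. HHIP, which traps the ligand, had a log2 change of -0.50 ± 0.35 (adjusted p = 0.255), -0.31 without myoblast replicate 2 and -0.75 without myotube replicate 1.

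The co-receptors CDON and BOC, which help ligand binding, rose. CDON went from 7.76, 6.99 and 7.57 FPKM in myoblasts to 20.2, 19.5 and 17.7 FPKM in myotubes, a log2 change of 1.42 ± 0.09 (adjusted p = 9.77e-06). BOC went from 11.4, 11.1 and 8.03 FPKM to 20.8, 21.7 and 21.9 FPKM, a log2 change of 1.14 ± 0.12 (adjusted p = 0.000109). In the mouse both are also cell adhesion receptors that favour muscle differentiation, and in both the groups were apart. KIF7, the kinesin of the cilium tip that works with the GLI factors, rose by 0.52 ± 0.09 on the log2 scale (adjusted p = 0.0012). Of genes that GLI factors are known to induce in some tissues, BCL2 fell (log2 change -1.36 ± 0.11, adjusted p = 3.23e-05) and MYCN rose (log2 change 1.09 ± 0.10, adjusted p = 5.4e-05). The ligand genes SHH, IHH and DHH had at most 4 counts in any library and were not tested, so they could not be compared at this depth. GAS1 was not analysed here.

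Other genes of the cilium, listed by function, allow the family to be set beside its neighbours. These lists were drawn up with earlier results of these data known. Of 7 genes listed as further IFT and BBS proteins or their associates, 6 rose and 0 fell (0 also at an unadjusted p under 0.05, with DESeq2 and with limma). Their median log2 change was 0.86, and 85.7% were called higher, beside 30.0% higher and 29.1% lower over all genes tested. TRAF3IP1, an IFT-B subunit that binds microtubules, rose from 14.0, 14.6 and 12.5 FPKM to 26.7, 24.8 and 25.4 FPKM, a log2 change of 0.97 ± 0.08 (adjusted p = 4.23e-05). HSPB11, the partner of IFT27, rose by 0.88 ± 0.12 on the log2 scale (adjusted p = 0.000452), close to the 0.93 of IFT27. Of 13 further genes listed with the transition zone, not all of them gate proteins, 7 rose (53.85%), 1 fell (7.69%) and 5 had no call. Their median log2 change was 0.41. Those that rose included TMEM17 (log2 change 1.41 ± 0.21, adjusted p = 0.000589) and CC2D2A (log2 change 0.87 ± 0.13, adjusted p = 0.000591), both of the MKS module. The gene that fell, INVS, is named after its value was seen, and its call was lost without myoblast replicate 2, myotube replicate 1 or myotube replicate 3.

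Of 14 tested genes for ciliary membrane and cargo proteins, 8 rose (57.1%), 1 fell (7.14%) and 5 had no call, beside 30.0% higher and 29.1% lower over all genes tested. Their median log2 change was 0.27. Without myoblast replicate 3, and likewise without myotube replicate 1 or 2, 5 rose. With DESeq2 6 rose and 1 fell, and with limma 4 rose and 1 fell on FPKM and 2 rose and 2 fell on TPM. The number that rose thus depended on the test and on the libraries. PDGFRA, a growth factor receptor that signals from the cilium of fibroblasts, rose by 0.80 ± 0.14 on the log2 scale (adjusted p = 0.0015), and PKD2, a cation channel of the cilium, by 0.68 ± 0.13 (adjusted p = 0.00192). PDGFRA also stands in the fibroblast list described further on.

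Genes of the centriole and of the start of a cilium were divided or lower. Of 29 genes of the distal appendages and of cilium initiation, 6 rose, 11 fell and 12 had no call, with a median log2 change of -0.05. That is 20.7% higher and 37.9% lower, against 30.0% and 29.1% of all genes tested. This list was not sorted by whether a gene favours or hinders a cilium, so its counts do not say which of these changed. CEP131 and FBF1, proteins of the centriolar satellites and of the distal appendages, rose by 0.91 ± 0.08 (adjusted p = 3.95e-05) and 0.90 ± 0.08 (adjusted p = 6.07e-05) on the log2 scale. TAPT1 fell by 1.34 ± 0.11 (adjusted p = 3.37e-05), and C2CD3, needed to build the distal appendages, fell by 0.92 ± 0.24 (adjusted p = 0.0107). Of 16 genes of centriole duplication, 11 fell (68.75%) and 2 rose (12.5%), with a median log2 change of -0.68. PLK4, the kinase that starts duplication, fell from 31.8, 27.6 and 17.9 FPKM to 5.49, 5.05 and 5.25 FPKM, a log2 change of -2.23 ± 0.20 (adjusted p = 4.37e-05).

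Genes that act in taking the cilium down were mostly lower. Of the 13 genes tested, 3 rose (23.1%), 8 fell (61.5%) and the other 2 were not called, beside 30.0% higher and 29.1% lower over all genes tested. The 3 that rose, named after their values were seen, were NEDD9, TCHP and NDE1. NEDD9 rose by 0.98 ± 0.15 on the log2 scale (adjusted p = 0.000688), TCHP by 0.92 ± 0.17 (adjusted p = 0.00209) and NDE1 by 0.49 ± 0.08 (adjusted p = 0.000994). AURKA, the kinase that triggers disassembly before mitosis, fell from 33.9, 36.4 and 18.4 FPKM to 5.06, 5.78 and 5.14 FPKM, a log2 change of -2.41 ± 0.23 (adjusted p = 6.65e-05). PLK1 and NEK2, 2 more kinases of disassembly, fell by 2.49 ± 0.22 (adjusted p = 4.33e-05) and 2.52 ± 0.23 (adjusted p = 4.78e-05) on the log2 scale. These kinases also drive mitosis, and all 27 mitosis genes tested were called lower, with a median log2 change of -2.10 and summed levels of 785 to 1428 FPKM in myoblasts and 281 to 305 FPKM in myotubes. Some of the disassembly genes that fell also stand in the mitosis list. The part of cell division in the values of the cilium genes and of the disassembly genes was not tested.

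A list of transcription factors was made up of the RFX family with its partners, FOXJ1 and further factors linked to motile cilia. Of its 11 tested genes 7 fell (63.6%) and 3 rose (27.3%), beside 29.1% lower and 30.0% higher over all genes tested. The list includes RFX5, RFXANK and RFXAP, which regulate class II histocompatibility genes, and 2 of the 3 that rose were RFX5 and RFXANK. RFX3, which in the mouse controls many IFT genes, fell from 3.20, 3.12 and 2.81 FPKM to 1.40, 1.40 and 1.98 FPKM, a log2 change of -0.88 ± 0.18 (adjusted p = 0.00289). FOXJ1, the factor of motile cilia, was near the limit of detection, with 18 to 21 counts per myoblast library and 1 to 5 per myotube library. It fell by 2.63 ± 0.48 on the log2 scale (adjusted p = 0.0017). RFX5 rose by 1.81 ± 0.13 on the log2 scale (adjusted p = 1.87e-05). Markers of multiciliated cells summed to between 24.9 and 28.3 FPKM in myoblasts and between 14.9 and 17.4 FPKM in myotubes. TPPP3, a tubulin-binding protein that fell by 4.56 ± 0.29 on the log2 scale (adjusted p = 9.66e-06), accounts for that difference. Without it the sums were 12.1 to 14.1 FPKM in myoblasts and 14.1 to 17.1 FPKM in myotubes. Of the 16 markers tested, 4 rose, 5 fell and 7 had no call, with a median log2 change of 0.21.

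**Figure D4:**
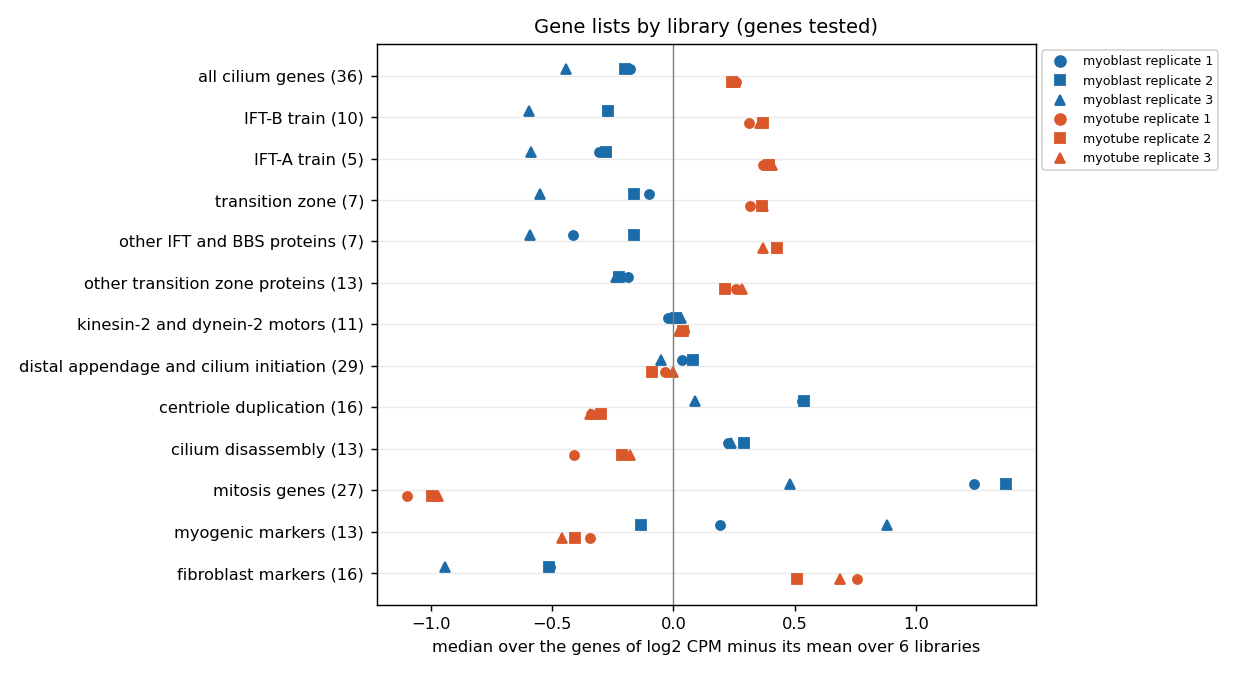
Median over the tested genes of each list (y axis, number of genes in brackets) of log2 CPM minus that gene's mean over the 6 libraries (x axis), for each library. In the cilium, IFT and transition zone lists the myotube points (orange) lie to the right of the myoblast points (blue); in the centriole duplication, disassembly, mitosis and myogenic lists they lie to the left, and myoblast replicate 3 (blue triangle) stands apart from the other myoblasts in several lists.

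Myoblast replicate 3 stood apart for the cilium genes too. In log2 CPM it was the lowest myoblast library for 31 of the 36 genes, or 86.1%, against 42.6% of all genes tested. It was the lowest of all 6 libraries for 27, or 75%, against 23.8%. The family was selected on the myotube against myoblast values, and 29 of the 36 changes were positive. The lowest of 6 libraries is then mostly a myoblast library, so nothing is read from that second gap. The log2 CPM of myoblast replicate 3 differed from the mean of the other 2 myoblast libraries by a median of -0.31 over the cilium genes and -0.02 over all genes tested. In the same library that median was -0.84 for mitosis genes, -0.57 for centriole duplication genes and -0.52 for fibroblast markers. It was 0.80 for leukocyte, 0.93 for myogenic and 1.055 for epithelial markers. Their part in the cilium values was not tested. Without that library 23 cilium genes were called higher and 1 lower, and the median log2 change was 0.44. By role it was 0.60 for IFT-B, 0.69 for IFT-A, 0.41 for the transition zone and 0.48 for the Hedgehog genes. The libraries of a state also differed in how closely they kept together: the median coefficient of variation of FPKM over the 36 genes was 15.5% among myoblasts and 6.51% among myotubes, with 31 genes more variable among myoblasts. Over all genes tested the medians were 12.8% and 9.09%. The myoblast values include replicate 3, and the spread of the other 2 myoblast libraries alone was not computed.

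Markers of other cells also differed between the 2 states, though not in every list. Of 16 fibroblast markers tested, 14 were called higher in myotubes and 1 lower, with summed levels of 1530 to 2425 FPKM in myoblasts and 5009 to 5805 FPKM in myotubes. Of the defining ones TCF21 had at most 2 counts per library and was not tested. Of 6 smooth muscle markers 5 were called higher, and 1 was called lower in the fit of all libraries but not without myotube replicate 2 or 3. Myogenic markers summed to between 1901 and 3243 FPKM in myoblasts and between 988 and 1113 FPKM in myotubes. Leukocyte markers had 3 of 10 called higher and 1 lower, beside 30.0% higher and 29.1% lower over all genes tested. Without myoblast replicate 3, 7 leukocyte markers were called higher and 1 lower. Called lower were 4 of 7 endothelial, 4 of 6 epithelial, 5 of 7 erythroid and 4 of 6 nerve and Schwann markers. In those lists 1 endothelial marker and 1 nerve and Schwann marker were called higher. Of 5 cartilage markers tested, 2 were called higher and 2 lower. These lists are short. The part of a changed mixture of cells in the cilium values was not tested.

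In levels per gene length the cilium genes lay near the middle of all genes. Their median of mean FPKM was 8.44 in myoblasts and 11.5 in myotubes, and over all genes tested it was 10.3 and 10.2. In myoblasts they ran from TCTN1 at 1.58 to IFT20 at 88.7 FPKM, 56.2-fold, and in myotubes from PTCH1 at 2.00 to IFT20 at 83.7 FPKM, 41.9-fold. The genes lie on 17 chromosomes, with 9 on chromosome 1. Of the 36, 7 overlap an entry on the opposite strand, and 4 of those 7 (IFT140, TCTN1, WDR19 and WDR34) face an entry with more counts than their own.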

How the data were processed

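RNA-seq tables of 3 myoblast and 3 myotube libraries were used. Reads were handled with HISAT and HTSeq, per the submitters' processing notes; versions, genome build, annotation and strand setting are named in no source used here. Per the file headers, each deposited table held the read count of every gene and the authors' FPKM. The deposited FPKM equalled count over listed length and library total within 1% for 66.6% of values; for the cilium genes it did so in every library for 14, and for 22 it implied a shorter length, by up to 2.06 times. Folds between the levels of different genes depend on which length is used. The 2 lines per table that named no gene were left out.

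The counts as deposited were tested with edgeR 4.0.16 in R 4.3.3 (quasi-likelihood, filterByExpr, TMM, two-sided, Benjamini-Hochberg over the 15959 genes that passed, called at an adjusted p under 0.05). An SE is the size of the log2 change over the square root of F. DESeq2 1.42.0, limma 3.58.1 on log2(FPKM + 1) with other pseudocounts, other scalings, no filter, a stricter threshold, a replicate block and leaving out each library were alternatives. The fit was tested on simulated data. Libraries were compared on log2 CPM.

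The cilium genes and all gene lists were chosen with earlier results of these data known. Values by library are given for the Hedgehog genes and, in each other role, for the 3 largest changes and the smallest, plus IFT20, BBS4, CEP290, TULP3 and OFD1; from other lists, up to 4 called genes whose mean FPKM was at least 1, by size of change, plus GLI1, HHIP, BOC, CDON, KIF7, KIF3A, AURKA, RFX3 and FOXJ1. Not every gene so chosen is printed, and some genes that the counts include are not reported here. Promoter motifs were not analysed here, and no sequences are printed.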

Additional observations from a re-analysis of the deposited data

How the results depend on the processing

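Under the alternatives tried, 17 to 24 cilium genes were called higher. The number called lower was 2 with limma on log2(FPKM + 1), with 0.1 or 5 in place of 1, and 3 with limma on log2(TPM + 1), an alternative chosen after seeing the data, as was scaling by library totals without TMM. Their median log2 change was 0.25 with limma at a pseudocount of 5 and 0.32 on TPM. Leaving out each library in turn gave 21 to 24 higher, 1 lower in each case and medians from 0.44 to 0.57. Libraries of equal replicate number had correlations of their deviations of 0.0065, 0.034 and -0.033, within the range for unequal numbers, -0.10 to 0.078. With 3 libraries of each state such values cannot exclude a pairing. The replicate block gave 23 higher and 1 lower. Of 544 values of 34 single cilium genes under these settings, 499 kept direction and call, 17 (5 genes) lost a call, 11 (4 genes) gained one and 17 (5 genes) changed sign. None of the latter 5 was called. On TPM, ARL6 was at -0.0414, TULP3 at -0.0477 and TTC26 at -0.11. Without TMM, TTC26 was at -0.0389. With limma on FPKM at pseudocounts of 1, 0.1 and 5, TTC26 was at -0.0149, -0.0131 and -0.0137. GLI2 was at 0.00977 with the replicate block. When 1 library was left out, GLI2 ran from -0.19 to 0.12, IFT20 from -0.17 to 0.0671 and TTC26 from -0.16 to 0.12. The cause was not tested. On TPM the calls of CEP290, GLI3 and OFD1 were also lost and BBS2 was called lower. TCTN1, GLI1 and FOXJ1 had few counts, which limits their precision.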
